A study of Heterocephalus glaber and Mus musculus with 9 samples.

Results

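The spleens of healthy naked mole-rats (NM-R, Heterocephalus glaber) that were large (lsNM-R) were compared with those that were small (ssNM-R). All 6 NM-R libraries among the 9 spleen libraries of the study entered the comparison, 3 per cohort, and the 3 mouse libraries did not. Cohorts were taken from the spleen size given in the labels, with enlarged read as lsNM-R. The ssNM-R spleens came from males numbered 2, 3 and 6, aged 30, 26 and 23 months. The lsNM-R spleens were numbered 1, 4 and 5 and came from a male of 24 months, a female of 29 months and a male of 23 months. All 6 animals were untreated African naked mole-rats kept under the same warm and humid housing, and RNA was taken from whole frozen spleen, with 1 library per animal. Since lsNM-R 4 was the only female, sex cannot be told apart from the differences of that spleen.

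The spleen filters blood in its red pulp, where macrophages recycle iron from old red cells and where rodents can make new blood cells, and it holds B and T lymphocytes in its white pulp. Neutrophils fill successive sets of granules as they mature, first the primary granules with myeloperoxidase, then secondary and tertiary granules with lactoferrin, collagenase and gelatinase, and they show chemokine and growth factor receptors at the end of this path. Type I interferons induce a set of antiviral genes in most cells, among them the ubiquitin-like protein Isg15 and the RNA sensors of the Oas and Dhx families. The comparison asked whether genes of these cells and pathways differed between large and small spleens.

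The libraries held between 7815326 and 18387599 reads over the listed genes, with 3 shallow libraries (ssNM-R 2, ssNM-R 3 and lsNM-R 1, at most 8985705 reads) and 3 deep ones (ssNM-R 6, lsNM-R 4 and lsNM-R 5, at least 16883689 reads). Each depth class held only 1 spleen of one of the cohorts, so cohorts were not tested inside a class. Spleen identity was clear from Tlx1, a homeobox gene needed to form the spleen, which lay between 702 and 973 normalized counts in the 6 libraries. Nkx2-5 and Nkx2-3 of the splenic mesenchyme, Cd3e of T cells, and Hmox1 and the iron exporter Slc40a1 of red pulp macrophages were all present, each at 129 normalized counts or more in each spleen. A normalized count is the reads of a gene divided by the size factor of its library, so values describe the share of a gene in the RNA of a spleen and not its amount per organ. In whole spleen RNA, more cells of a type and more RNA per cell cannot be told apart.

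No gene passed an adjusted p of 0.05 in the limma fit on log2(normalized count + 1), and 0% of the 11045 genes tested were thus called in either direction. The smallest adjusted p was 0.428, for Mmp8. At an unadjusted p under 0.05, 433 genes (3.92%) were higher and 272 genes (2.46%) were lower in lsNM-R than in ssNM-R, 6.38% in all. The edgeR quasi-likelihood test on the recovered reads also called 0 genes, with 403 higher and 353 lower at an unadjusted p under 0.05. DESeq2 on the same 6 libraries called 18 genes (0.163%) at an adjusted p under 0.05, 14 higher and 4 lower in lsNM-R. All 18 had cohorts that did not overlap, which was also true of 823 genes (7.45%) above and 721 genes (6.53%) below over all genes tested. The cohorts were close: the log2 fold change was below 0.25 in size for 70.8% of genes and above 1 for 93 genes (0.842%). In the following, fold changes are lsNM-R minus ssNM-R on the log2(normalized count + 1) scale with the SE of the limma fit, and adjusted p-values of single genes are those of DESeq2 on 6 spleens. None of these genes passed limma, with an adjusted p between 0.428 and 0.75 for the 18, or edgeR, with one between 0.463 and 0.714.

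Several genes of late neutrophil maturation had higher levels in lsNM-R spleens, and Mmp8, Csf3r and Clec4d were called by DESeq2 but not by limma or edgeR. Of 16 tested receptors and signalling proteins of mature neutrophils, 15 had a positive log2 fold change, with a median of 0.47 against 0.01 over all genes tested. At an unadjusted p under 0.05, 7 of the 16 (43.8%) were higher and 0 lower, beside 3.92% and 2.46% of all genes. Among 14 tested genes of the secondary and tertiary granules 5 were higher and 1 was lower, with a median of 0.23. With each spleen left out in turn, between 5 and 8 of the 16 receptor genes were higher at this p. For the 14 granule genes it was between 5 and 6. The share of all genes higher in these fits ranged from 2.75% to 4.46%. The granule median was 0.04 without ssNM-R 2 and 0.41 without ssNM-R 6. The lists were written with earlier results on these spleens known, so these counts describe the 6 spleens and are not a test of the lists.

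Mmp8, the collagenase of neutrophil granules, was at 135, 182 and 136 normalized counts in ssNM-R 2, 3 and 6 and at 357, 421 and 367 in lsNM-R 1, 4 and 5. The lowest lsNM-R spleen lay well above the highest ssNM-R spleen. The means were 151 ± 26.6 and 382 ± 34.3 (SD, n = 3 each), a ratio of 2.53 and a log2 fold change of 1.34 ± 0.17 (SE), with a DESeq2 adjusted p of 1.524e-07. Mmp8 was called by DESeq2 whichever spleen was left out. The mouse gene of this name lies on chromosome 9 at 7558429 to 7568486 (mm9, plus strand), while NM-R positions were not used here.

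Csf3r, the receptor for the neutrophil growth factor G-CSF, measured 666, 974 and 746 normalized counts in ssNM-R 2, 3 and 6 compared to 1249, 1562 and 1615 in lsNM-R 1, 4 and 5. Its log2 fold change was 0.90 ± 0.17 (SE), with a DESeq2 adjusted p of 0.00877. The call held in 3 of the 6 fits that left out a spleen. Clec4d, a C-type lectin receptor of myeloid cells, was at 559, 628 and 557 in the ssNM-R spleens and at 1107, 892 and 891 in the lsNM-R spleens. Its 3 ssNM-R values lay within a narrow band below all lsNM-R values (log2 fold change 0.72 ± 0.13 SE, DESeq2 adjusted p of 0.00786), and the call held in 5 of those 6 fits.

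Other neutrophil genes of these lists were higher at an unadjusted limma p under 0.05 without a call by DESeq2 on 6 spleens. Mmp25, a membrane-bound metalloprotease of neutrophils, was at 306 to 473 normalized counts in ssNM-R and at 636 to 709 in lsNM-R. Cybb, the membrane subunit of the oxidase that makes superoxide, ranged from 2158 to 3340 in ssNM-R and from 4074 to 4296 in lsNM-R. Olfm4, a granule gene of a subset of neutrophils, and the lactoferrin gene Ltf likewise had cohorts that did not overlap. Their log2 fold changes were 0.92 and 0.52. Mxd1, a Myc antagonist of mature neutrophils, and the chemokine receptor Cxcr2 were higher by 0.45 and 0.72 on the log2 scale.

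Not all granule genes had the same sign. The gelatinase Mmp9 was at 1902, 2683 and 2481 normalized counts in ssNM-R 2, 3 and 6 and at 1018, 850 and 2111 in lsNM-R 1, 4 and 5. It was lower in lsNM-R (log2 fold change -0.93 ± 0.31 SE, unadjusted p of 0.0174), although lsNM-R 5 lay inside the ssNM-R range. Of the early granule genes 4 were tested and none had an unadjusted p under 0.05, beside 6.38% of all genes. Mpo, the myeloperoxidase of primary granules, was at 3461 to 5108 in ssNM-R and 2888 to 3962 in lsNM-R. S100a9, the most abundant transcript of the receptor and signal list, overlapped between the cohorts, at 10976 to 16840 and 15639 to 25782.

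Several further innate immune genes were among the DESeq2 calls. Lbp, which carries bacterial lipopolysaccharide to its receptors, was at 421, 509 and 431 normalized counts in ssNM-R 2, 3 and 6 and at 929, 853 and 743 in lsNM-R 1, 4 and 5. The cohorts were far apart compared to their spread (454 ± 48.1 and 842 ± 93.7, SD, n = 3 each), the log2 fold change was 0.89 ± 0.14 (SE), and the DESeq2 adjusted p was 0.000246. Lbp was, with Mmp8 and Glrx5, 1 of 3 genes called in all 6 fits that left out a spleen. The mouse gene lies on chromosome 2 at 158132229 to 158158588 (mm9, plus strand).

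Acod1, the enzyme that makes itaconate in activated macrophages, was at 316, 456 and 286 normalized counts in ssNM-R and at 610, 832 and 583 in lsNM-R (DESeq2 adjusted p of 0.0431). Chit1, a chitinase of macrophages, was at 58.8, 55.6 and 39.8 compared to 127, 101 and 110, with the same adjusted p. Neither gene kept its call in more than 1 of the 6 fits that left out a spleen. Cd163, the haemoglobin scavenger receptor of macrophages, had the highest ratio of means of the named genes but an uneven spread: it was at 13.7, 88.6 and 205 in ssNM-R 2, 3 and 6 and at 977, 386 and 119 in lsNM-R 1, 4 and 5. The lowest lsNM-R spleen lay below the highest ssNM-R spleen, and the DESeq2 adjusted p was 0.767. The 19 tested markers of monocytes and macrophages had a median log2 fold change of -0.03. Cd163 was the only member (5.26%) at an unadjusted p under 0.05, beside 6.38% of all genes.

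The remaining genes called higher came from several pathways. Glrx5, a mitochondrial protein that passes on iron-sulphur clusters and is needed for haem synthesis, was at 1039, 862 and 901 normalized counts in ssNM-R 2, 3 and 6 and at 1876, 2290 and 1425 in lsNM-R 1, 4 and 5. The ratio of the means was 2.00 and the log2 fold change 0.97 ± 0.18 (SE), with a DESeq2 adjusted p of 0.00171, and of 0.122 with all 9 spleens. P2ry12, the ADP receptor of platelets, measured 224, 317 and 295 in the ssNM-R spleens compared to 893, 930 and 371 in the lsNM-R spleens (DESeq2 adjusted p of 0.0254). The value of lsNM-R 5 was near the ssNM-R spleens and those of the other two lsNM-R spleens were far above them, and the call held in 2 of the 6 fits that left out a spleen.

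Rgs2, which shortens signals of G protein-coupled receptors, was at 271 to 297 normalized counts in ssNM-R and at 424 to 585 in lsNM-R. Mctp2, a membrane protein with calcium-binding C2 domains, was at 290 to 351 and 494 to 546, and Megf9, a membrane protein with EGF-like repeats, at 387 to 530 and 767 to 1145. Pm20d1, an enzyme that links fatty acids to amino acids, was at 158 to 191 and 248 to 420. Atp6v1c2, a subunit of the proton pump of acidic vesicles, was low in both cohorts, at 12.6 to 21.9 and 40.1 to 76.2. These 5 genes had DESeq2 adjusted p-values between 0.00877 and 0.0404, and their calls held in 1 to 3 of the 6 fits that left out a spleen.

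The mitochondrially encoded Nd5, a subunit of respiratory complex I, was at 44975, 39221 and 38449 normalized counts in ssNM-R and at 56564, 57867 and 54267 in lsNM-R (DESeq2 adjusted p of 0.0404, called in 1 of the 6 fits that left out a spleen). It was the only call by DESeq2 on 6 spleens among the 13 mitochondrially encoded genes, whose median log2 fold change was -0.04. Nd3 of the same complex was lower, at 3566, 3706 and 6461 in lsNM-R compared to 6106 to 6479 in ssNM-R (unadjusted p of 0.0423). Reads of mitochondrial genes can be shared with copies in the nuclear genome, so these values are uncertain.

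**Figure D1:**
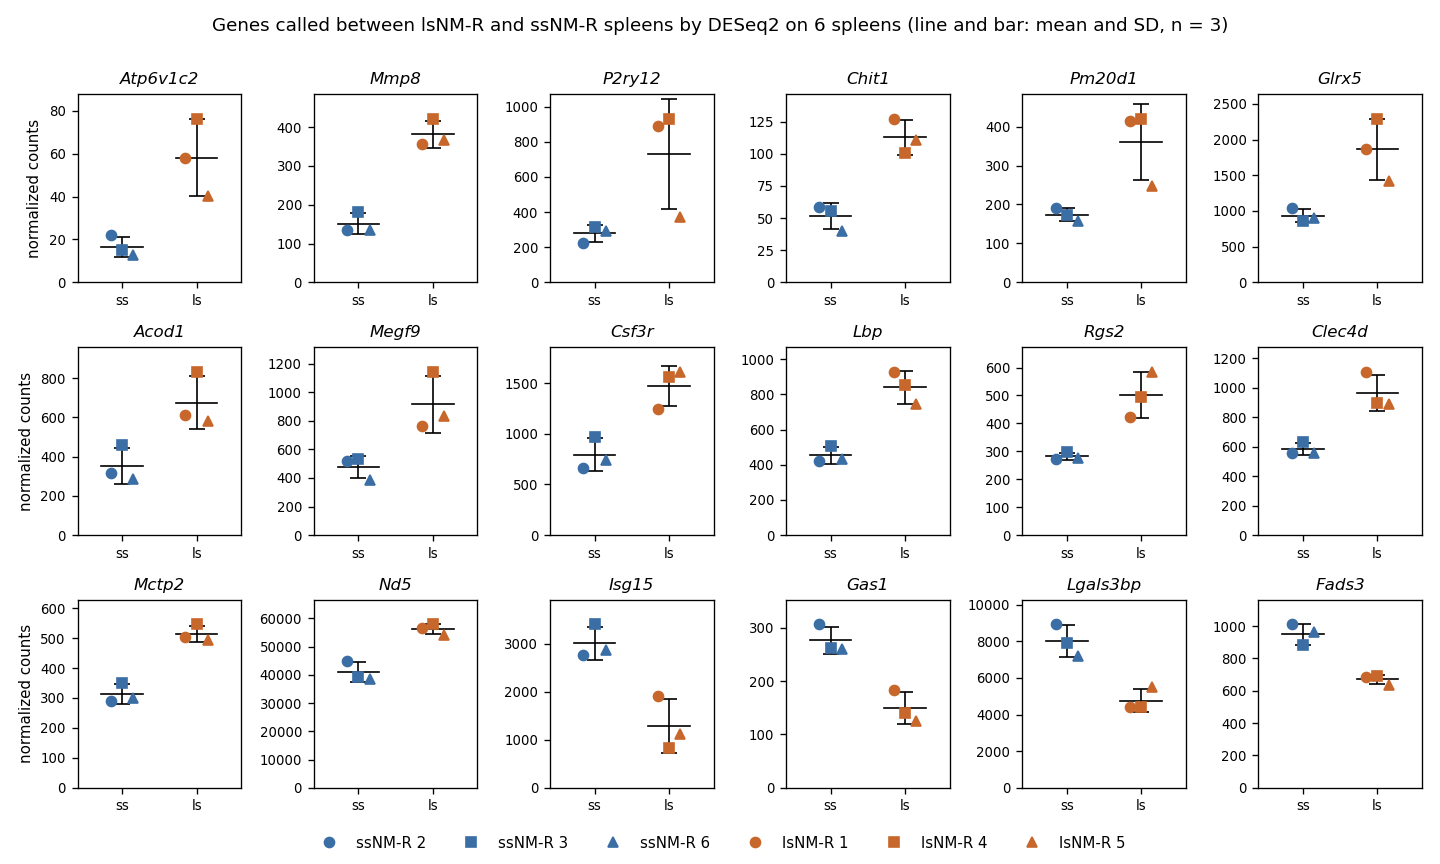
Normalized counts (vertical axes, each from 0) of the 18 genes called by DESeq2 in the ssNM-R (ss, blue) and lsNM-R (ls, orange) spleens, with each point 1 spleen and lines and bars the mean and SD of 3 spleens. The first 14 genes lie higher in lsNM-R and Isg15, Gas1, Lgals3bp and Fads3 lie lower, and in P2ry12 the triangle of lsNM-R 5 (371) is close to the ssNM-R spleens.

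Most interferon response genes had lower mean levels in lsNM-R spleens, with Isg15 the only member called by DESeq2 on 6 spleens. Of 14 tested members of the list, 13 had a negative log2 fold change, with a median of -0.39, and 6 (42.9%) were lower at an unadjusted p under 0.05 beside 2.46% of all genes. Against the mean of the 6 spleens, the median log2 level of the list was 0.34, 0.34 and -0.20 in ssNM-R 2, 3 and 6. It was -0.04, -0.29 and -0.27 in lsNM-R 1, 4 and 5, so ssNM-R 6 lay below lsNM-R 1. The lowest levels were those of the deep libraries, and the part of depth was not tested for this list. Isg15 was at 2758, 3400 and 2863 normalized counts in ssNM-R 2, 3 and 6 and at 1911, 831 and 1115 in lsNM-R 1, 4 and 5. All lsNM-R values lay below all ssNM-R values, the means were 3007 ± 345 and 1286 ± 560 (SD, n = 3 each), and the log2 fold change was -1.31 ± 0.27 (SE) with a DESeq2 adjusted p of 0.00877. The call held in 2 of the 6 fits that left out a spleen and not with all 9 spleens (adjusted p of 0.133). The mouse gene lies on chromosome 4 at 155573533 to 155574927 (mm9, minus strand).

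The other members at an unadjusted p under 0.05 were Oas2, which senses double-stranded RNA, Irf9, a DNA-binding partner of Stat2, the helicase Dhx58, Ifi35 and Cmpk2. Oas2 was at 831, 1120 and 374 normalized counts in ssNM-R 2, 3 and 6 and at 412, 277 and 277 in lsNM-R 1, 4 and 5, so ssNM-R 6 lay among the lsNM-R spleens. Irf9 was at 1148 to 1555 in ssNM-R and 943 to 1078 in lsNM-R without overlap. Stat2 itself overlapped between the cohorts, with a log2 fold change of -0.18 and an unadjusted p of 0.420. The count of members lower at this p moved between 2 and 7 when single spleens were left out. It was 2 (14.3%) without ssNM-R 2 and 2 (14.3%) without ssNM-R 3, beside 1.94% and 1.17% of all genes. Without ssNM-R 6 it was 7 (50%), beside 3.08% of all genes.

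Lgals3bp, a secreted glycoprotein that binds galectins and is known to be induced by interferon, was at 8926, 7900 and 7211 normalized counts in ssNM-R 2, 3 and 6 and at 4390, 4401 and 5496 in lsNM-R 1, 4 and 5. The cohorts did not overlap, the log2 fold change was -0.75 ± 0.14 (SE), and the DESeq2 adjusted p was 0.00171, with the call kept in 5 of the 6 fits that left out a spleen. Gas1, a membrane protein of growth-arrested fibroblasts, was at 261 to 306 in ssNM-R and 126 to 184 in lsNM-R (DESeq2 adjusted p of 0.0179). Fads3, a member of the fatty acid desaturase family, was at 881 to 1011 and 636 to 690 (DESeq2 adjusted p of 0.0431). The call of Gas1 held in 1 of the 6 fits that left out a spleen and that of Fads3 in 0.

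T and B lymphocyte genes leaned towards lsNM-R and were highest in lsNM-R 1. By summed level, lsNM-R 5 lay above the ssNM-R range for T cell markers only, and lsNM-R 4 for neither list. Of 21 T cell markers 20 had a positive log2 fold change with a median of 0.45, and of 15 B cell markers 13 did with a median of 0.29. Over all genes tested, 51.7% had a positive one. Only Cd3g, a chain of the T cell receptor complex, Rasgrp1, which couples that receptor to Ras, and Blnk, the B cell linker protein, were higher at an unadjusted p under 0.05. These were 9.52% of the T cell and 6.67% of the B cell markers, beside 3.92% of all genes. Cd3g was at 341, 492 and 403 normalized counts in ssNM-R 2, 3 and 6 and at 945, 433 and 674 in lsNM-R 1, 4 and 5. The summed level of the T cell markers was 7659 to 9844 in ssNM-R and 14805, 8072 and 11242 in lsNM-R 1, 4 and 5. For B cell markers it was 4146 to 6855 in ssNM-R and 9755, 4761 and 5922 in lsNM-R. Without lsNM-R 1 the medians were 0.20 for T cells and 0.06 for B cells, and without lsNM-R 4 the T cell median was 0.74 and 11 of the 21 T cell markers were higher at an unadjusted p under 0.05, beside 3.04% of all genes in that fit.

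Cytotoxic cell genes had no stable sign. Of 9 tested, 7 had a negative log2 fold change (median -0.19), but the median was 0.13 without ssNM-R 3 and 0.07 without lsNM-R 4. Tbx21, the transcription factor of type 1 lymphocytes, was the only member (11.1%) at an unadjusted p under 0.05, beside 6.38% of all genes. It was at 53.3, 102 and 97.3 normalized counts in ssNM-R 2, 3 and 6 and at 57.9, 30.3 and 35.7 in lsNM-R 1, 4 and 5. Plasma cell genes had a median of 0.04, with Jchain, the joining chain of secreted antibodies, between 2622 and 12446 among ssNM-R spleens and between 2770 and 8815 among lsNM-R spleens.

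Endothelial and sinus-lining genes were lower in 17 of 21 cases by the sign of the log2 fold change, with a median of -0.21. Over all genes tested, 51.7% had a positive log2 fold change. Sox17, a transcription factor of arterial endothelium, was at 155, 131 and 150 normalized counts in ssNM-R 2, 3 and 6 and at 91.8, 97.3 and 104 in lsNM-R 1, 4 and 5, without overlap (unadjusted p of 0.0101). Plvap, a protein of endothelial fenestrae, and Eng, a TGF-beta co-receptor, were the other members at an unadjusted p under 0.05, with log2 fold changes of -0.47 and -0.28. These 3 of 21 members (14.3%) stood beside 2.46% of all genes. The count went to 1 (4.76%) without ssNM-R 3, without ssNM-R 6 or without lsNM-R 1, beside 1.17%, 3.08% and 3.22% of all genes. It went to 6 (28.6%) without lsNM-R 5, beside 2.245% of all genes. Pecam1 and Cdh5, which mark endothelial cells in general, had log2 fold changes of 0.01 and 0.02. Matrix and stromal genes were split at an unadjusted p under 0.05. Pdgfra, a growth factor receptor of fibroblasts, was higher (log2 fold change 0.92) and Loxl1, which cross-links elastin, lower (-0.71). Each was 3.70% of 27 tested members, near the 3.92% and 2.46% of all genes. Des, the intermediate filament of muscle cells, was the only contractile gene at this p (5.56% of 18) and was lower by 0.57 on the log2 scale.

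Genes of red cell formation overlapped between the cohorts in most cases, as did most genes tested. Without overlap, 7.45% of all genes tested lay above and 6.53% below. Of 23 tested erythroblast regulators and membrane genes, 1 (4.35%) was higher and 1 (4.35%) lower at an unadjusted p under 0.05. These shares were near the 3.92% and 2.46% of all genes, and the median log2 fold change was -0.06. Gfi1b, a repressor needed for erythroid and megakaryocytic maturation, was at 2920 to 4190 normalized counts in ssNM-R and 2454 to 2891 in lsNM-R.

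None of the 9 tested genes of haem synthesis had an unadjusted p under 0.05, beside 6.38% of all genes. Alas2, the first enzyme of erythroid haem synthesis, was at 32120 to 45862 in ssNM-R and at 28187 to 41692 in lsNM-R, with a log2 fold change of -0.11 ± 0.21 (SE). Among 15 megakaryocyte and platelet genes P2ry12 (6.67%) was the only one at an unadjusted p under 0.05, beside 6.38% of all genes. Itga2b, the platelet integrin chain, overlapped between the cohorts, at 6405 to 7458 and 4780 to 7978. Of 18 tested genes of iron handling, Cd163 and Fbxl5, the iron-sensing ubiquitin ligase subunit, were higher at this p (11.1%), beside 3.92% of all genes. Slc40a1 was at 19805, 16556 and 11570 in ssNM-R and at 20473, 18937 and 22204 in lsNM-R.

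At an unadjusted p under 0.05 in either direction, cell cycle genes had 0 of 12 members and DNA replication genes 0 of 19. The share over all genes tested was 6.38%, so a count of 0 in lists of this size is near that share. The list medians were -0.05 and -0.08. Top2a, which untangles replicated DNA, was at 8603 to 10855 normalized counts in ssNM-R and 8471 to 10376 in lsNM-R. Stem and progenitor genes had a median of 0.09, with Procr, the protein C receptor of endothelium and stem cells, lower at this p (102 to 119 in ssNM-R, 57.1 to 92.2 in lsNM-R).

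**Figure D2:**
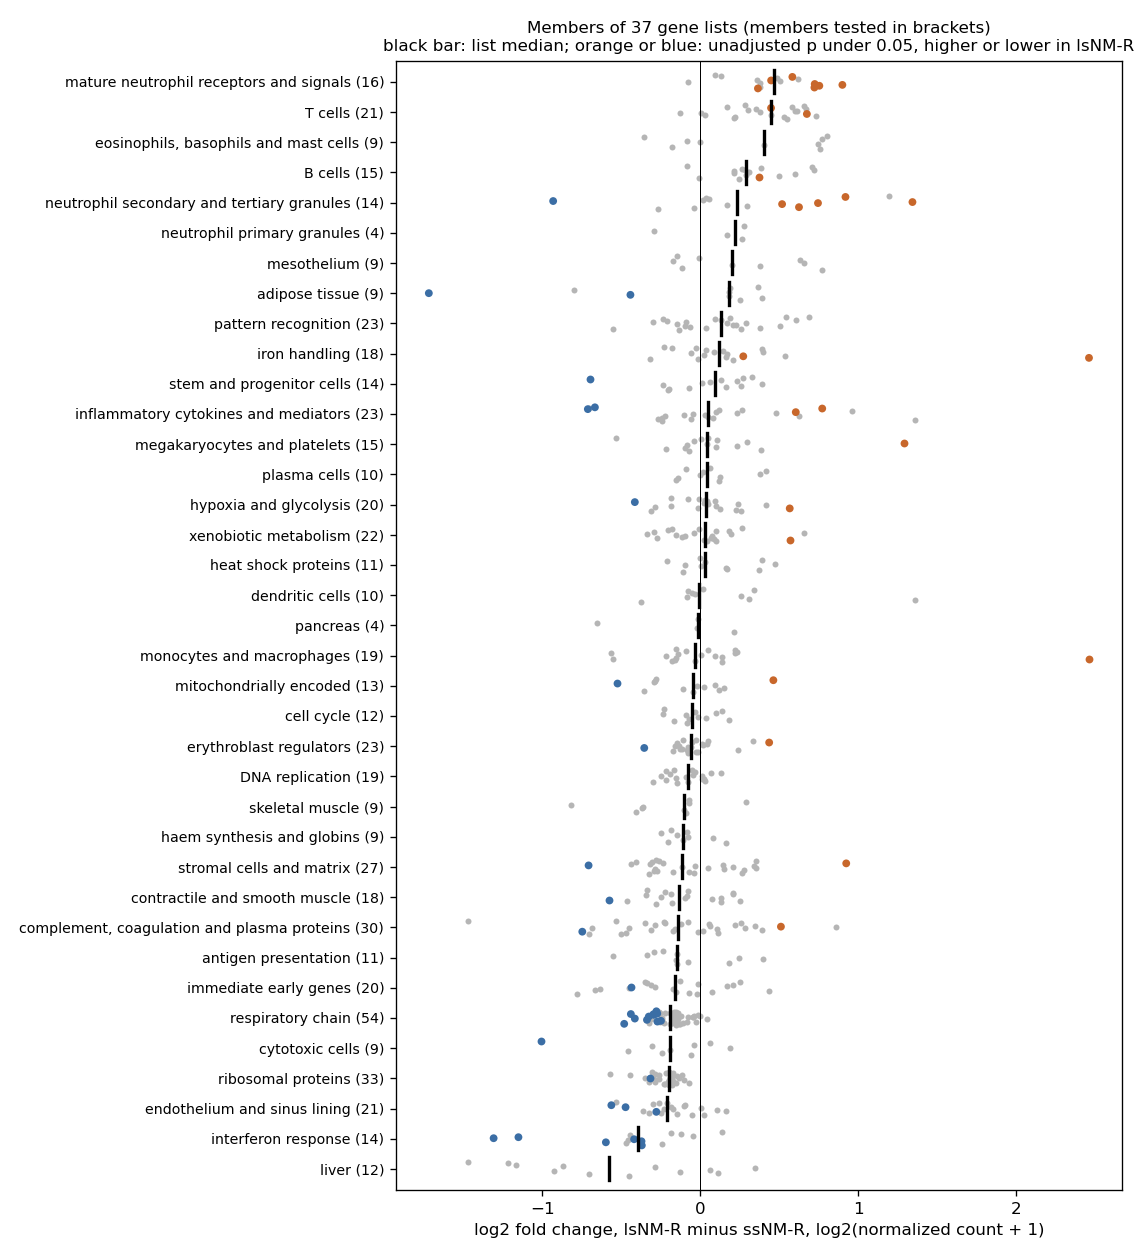
Log2 fold change of each tested member of 37 gene lists (horizontal axis, lsNM-R minus ssNM-R), with lists ordered by their median (black bar) and members at an unadjusted p under 0.05 in orange (higher in lsNM-R) or blue (lower). Orange points gather in the lists of mature neutrophil receptors (7 of 16) and secondary and tertiary granules (5 of 14), and blue points in the interferon response (6 of 14) and the respiratory chain (11 of 54).

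**Figure D3:**
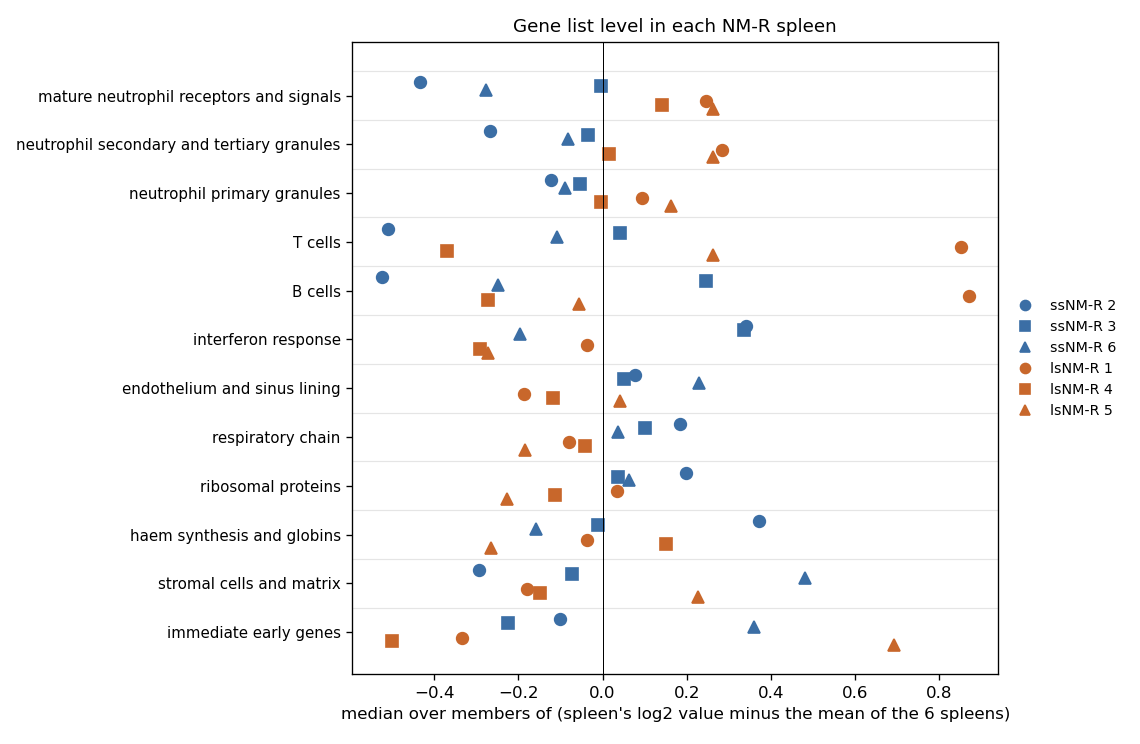
Median over the members of a list of the log2 value in a spleen minus the mean of the 6 spleens (horizontal axis), for 12 lists, with each point 1 spleen. The lsNM-R spleens lie to the right of the ssNM-R spleens for the neutrophil receptor list, whereas for T cells and B cells lsNM-R 1 (0.85 and 0.87) stands apart from lsNM-R 4 and lsNM-R 5.

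Nuclear genes of the respiratory chain and genes of ribosomal proteins had small and almost uniformly negative log2 fold changes. Of 54 tested respiratory chain genes 53 had a negative log2 fold change (median -0.19), whereas 51.7% of all genes tested had a positive one, and 11 (20.4%) were lower at an unadjusted p under 0.05 beside 2.46% of all genes. Atp5f1d, the delta subunit of ATP synthase, was at 1131, 1105 and 1194 normalized counts in ssNM-R 2, 3 and 6 and at 760, 892 and 809 in lsNM-R 1, 4 and 5 (log2 fold change -0.48 ± 0.11 SE). Ndufs7, Ndufa13 and Ndufs3 of complex I were lower by 0.44, 0.34 and 0.29 on the log2 scale without overlap between the cohorts. The count of 11 moved between 2 and 19 when single spleens were left out. It was 2 (3.70%) without ssNM-R 3 and 2 (3.70%) without lsNM-R 5, beside 1.17% and 2.245% of all genes. It was 4 (7.41%) without ssNM-R 2 and 19 (35.2%) without ssNM-R 6, beside 1.94% and 3.08% of all genes. Under 5 other scalings of the libraries it was between 15 and 18. All 33 tested ribosomal protein genes had a negative log2 fold change (median -0.20), with Rps14 as the only one at an unadjusted p under 0.05, compared to 2 to 5 of them under the other scalings. The ribosomal count was 9 (27.3%) without lsNM-R 1 and 6 (18.2%) without ssNM-R 6, beside 3.22% and 3.08% of all genes. It was 0 in the other 4 fits that left out a spleen, beside 1.17% to 2.245% of all genes. Ribosomal protein genes have many processed copies in mammalian genomes, so reads could be split between near-identical sequences. Whether this bears on the fold changes was not tested.

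The fold change of a gene moved with the GC content and the length of its transcript. These were taken from the mouse transcript of the same symbol, available for 9010 of the 11045 genes (81.6%), since NM-R transcripts were not used here. Genes were placed in 5 bins of about equal size by each property. In the bin with the lowest GC content the median log2 fold change was 0.17 and 190 genes were higher and 3 lower at an unadjusted p under 0.05. In the bin with the highest GC content it was -0.12, with 10 higher and 97 lower. Over the bins of length it went from -0.09 for the shortest to 0.13 for the longest transcripts. Across genes, which are not independent replicates, Spearman's rho between the fold change and GC content was -0.43 and that with length was 0.30. The spleens of a cohort differed in this: ssNM-R 6 was 0.21 below the mean of the 6 spleens for the longest bin on the log2 scale, and lsNM-R 1 and ssNM-R 2 were almost flat with GC content.

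**Figure D4:**
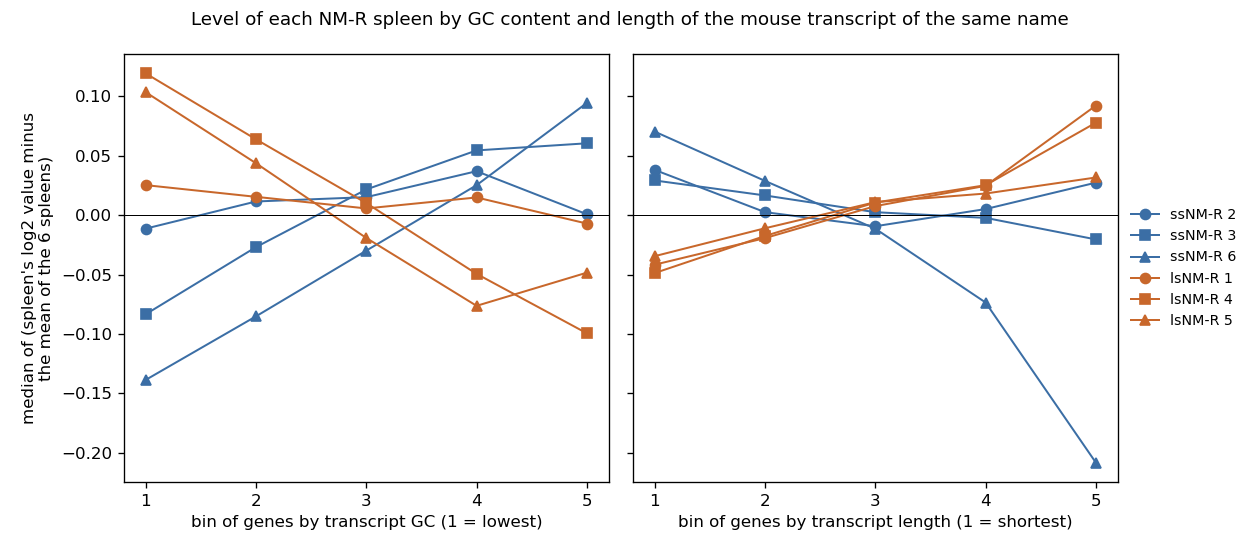
Median log2 value of each spleen minus the mean of the 6 spleens (vertical axis) in 5 bins of 9010 genes by the GC content (left) and length (right) of the mouse transcript of the same symbol, each line 1 spleen. With GC content lsNM-R 4 and lsNM-R 5 descend and ssNM-R 3 and ssNM-R 6 ascend, and with length ssNM-R 6 ends at -0.21 in the longest bin.

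When a smooth trend with GC content and length was taken off each library, 178 genes (1.98%) were higher and 165 genes (1.83%) were lower at an unadjusted p under 0.05. Of the 18 genes called by DESeq2, 16 had a mouse transcript, and all 16 kept their direction and an unadjusted p under 0.05 in that fit. The mature neutrophil list then had 9 of 16 members higher (median 0.48), the secondary and tertiary granule list 6 of 14 higher and 1 lower (median 0.30), and the interferon list 5 of 14 lower (median -0.39). The respiratory chain list had 47 members with a mouse transcript, with a median of -0.22 before the trend was taken off. In the fit without the trend, 1 of the 47 was lower at this p (median -0.13), and 38 had a negative log2 fold change. The ribosomal protein list had 0 of 33 lower at this p, with a median of -0.12, and 29 had a negative log2 fold change. Endothelial genes had 2 of 21 lower (median -0.19), and the T and B cell medians were 0.43 and 0.32.

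Some genes with a small limma p belonged to no list and were not called by DESeq2 on 6 spleens. Tspan6, a tetraspanin, was higher in lsNM-R (154 to 196 normalized counts, compared to 71.1 to 103 in ssNM-R). Lower genes included Lrrc8a, the essential subunit of volume-regulated anion channels, at 2042 to 2449 in ssNM-R and 1575 to 1703 in lsNM-R, and Cavin1, a coat protein of caveolae, at 3223 to 3633 and 2078 to 2723. Arc, an activity-regulated gene that is also expressed in migrating dendritic cells, was at 87.8 to 98.5 in ssNM-R and at 31.1, 29.6 and 63.3 in lsNM-R 1, 4 and 5. The metalloprotease Mmp19, the adaptor Apba3, the centrosomal protein gene Ccdc61 and Klhl26 were lower by 0.75, 0.52, 0.60 and 0.86 on the log2 scale. All genes of this paragraph were chosen among those whose cohorts did not overlap, so their lack of overlap is not a finding. Over all genes tested, 7.45% lay above and 6.53% below without overlap.

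Inflammatory mediators were mixed, with 2 of 23 higher and 2 lower at an unadjusted p under 0.05. These were 8.70% each way, beside 3.92% and 2.46% of all genes. The cyclooxygenase Ptgs2 and Il1rn, the antagonist of interleukin 1, were higher, with log2 fold changes of 0.77 and 0.60, and the cytokine gene Tnf and Nos2, the inducible nitric oxide synthase, were lower, with -0.67 and -0.71. Pattern recognition receptors and antigen presentation genes had 0 of 23 and 0 of 11 members at this p, beside 6.38% of all genes. Counts of 0 in lists of this size are near that share. C2 of the complement cascade was lower (8913 to 13869 normalized counts in ssNM-R, 5226 to 8609 in lsNM-R) and coagulation factor F5 higher (log2 fold change 0.51). The aryl hydrocarbon receptor gene Ahr was the only gene of xenobiotic metabolism at this p (4.55% of 22), higher by 0.57. Egln3, an oxygen-sensing prolyl hydroxylase, was higher and Pfkl, a glycolytic kinase, lower, by 0.57 and 0.41. Each was 5% of the 20 genes of hypoxia and glycolysis, whose median was 0.04.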

How the data were processed

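The authors deposited normalized counts: according to the methods and labels, they aligned reads with STAR 2.5.3a, those of mice to mm9 and those of NM-Rs to the NM-R genome, counted them per gene with HTSeq 0.10.0, named genes by mouse homologue, and divided counts by DESeq2 size factors over both species. The deposited signal values are thus reads per gene over 1 size factor per library, not divided by gene length. In each NM-R library 100% of values were whole multiples of 1 step (tolerance 0.001 reads), which returned the whole reads. The labels name a stranded mRNA kit and the methods a stranded total RNA kit, it is not known which was used, and whether counting used strand is not given in the sources used here.

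Of 12946 rows, 11045 averaged 10 or more normalized counts over the 6 NM-R spleens and were tested, 722 of them known only by an NM-R identifier and counted but not named. Values were fitted as log2(normalized count + 1) with limma 3.58.1 (R 4.3.3, trended empirical Bayes, 2-sided) and Benjamini-Hochberg adjustment at 0.05. The recovered reads were tested with edgeR 4.0.16 (quasi-likelihood, TMM) and DESeq2 1.42.0. For a single gene taken alone, an exact permutation test of 3 against 3 spleens cannot go below p = 0.10. Scripts were tested on simulated data.

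The 38 gene lists, the rule for named genes and the alternatives were chosen with earlier results of these data known. Named genes were the 12 higher and 12 lower genes with the smallest limma p among those with a symbol, a mean of at least 50 and no overlap, the 18 genes called by DESeq2 on 6 spleens, and in each list up to 4 members with the smallest unadjusted p under 0.05 or, with fewer than 2, the 2 with the highest mean. Mmp9, S100a9, Ltf, Cxcr2, Ifi35, Cmpk2, Stat2, Pecam1, Cdh5, Itga2b and Slc40a1 were named after their values were seen. Some genes that the rule names are not reported here.

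GC content and length are those of the longest GENCODE M1 transcript of the mouse gene, and mouse positions are on mm9.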

Additional observations from a re-analysis of the deposited data

How the results depend on the processing

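The call of single genes differed between tools: limma called 0 genes in all settings run and edgeR in the 1 fit run, while DESeq2 called 14 higher and 4 lower on 6 spleens and 41 higher and 16 lower on all 9 spleens, where mouse spleens share in the estimate and no filter on low values was used. Of the 18 genes called on 6 spleens, 16 were also called on 9, all but Isg15 and Glrx5. Leaving out 1 spleen at a time, DESeq2 called between 4 and 24 genes higher and between 0 and 18 lower. Without ssNM-R 2 it called 4 higher and 0 lower, without ssNM-R 3 it called 24 and 2, without ssNM-R 6 it called 14 and 10, without lsNM-R 1 it called 11 and 12, without lsNM-R 4, the only female, 7 and 4, and without lsNM-R 5 14 and 18. The genes of the 18 that were called again numbered 4, 10, 8, 11, 5 and 9 in these fits. At an unadjusted p under 0.05 the 433 higher genes became 667 with DESeq2 on 9 spleens, 757 with log2 library reads as a term, 758 with age as a term and 178 with the GC and length trend taken off, and between 304 and 493 without single spleens. The 272 lower genes became 452 without a filter on low values, 450 with DESeq2 on 9 spleens, 462 with age as a term and 165 with the GC and length trend taken off, and between 129 (without ssNM-R 3) and 356 without single spleens. In DESeq2 without single spleens these counts ranged from 276 to 463 higher and from 182 to 429 lower. Apart from the values above, limma with the other pseudocounts, filters and scalings, edgeR and DESeq2 on 6 spleens gave counts within a factor of 1.5. The cause was not tested. With age or depth as a term the adjusted fits still called 0 genes. The GC and length fit, the DESeq2 fits without a spleen and DESeq2 on 9 spleens as a comparison for the 18 genes were chosen after seeing the data. Of the genes named in the text, those at an unadjusted p under 0.05 or called by DESeq2 kept their direction in all settings run. Of 55 others named by the rule or after their values were seen, 33 changed sign in at least 1 setting. Many of the former, among them all 18 genes called by DESeq2, had cohorts that did not overlap. Leaving out 1 spleen cannot change the sign of such a limma fold change. Their kept direction is thus in part fixed by how they were chosen and is no test of stability. No paired analysis was possible because the lsNM-R numbers (1, 4 and 5) and the ssNM-R numbers (2, 3 and 6) have none in common. At the depth of the shallowest NM-R library, 3 reads correspond to 4.50 normalized counts, so genes near the limit of 10 were poorly measured.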

Other observations

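Some gene groups varied widely among the spleens of a cohort. Liver genes were highest in ssNM-R 6 and next in lsNM-R 5: Alb, the serum albumin gene, was at 60.2, 209 and 2173 normalized counts in ssNM-R 2, 3 and 6 and at 91.8, 99.4 and 694 in lsNM-R 1, 4 and 5. The 12 tested liver genes summed to 518, 709 and 3960 in ssNM-R and to 571, 566 and 1427 in lsNM-R, and their median log2 fold change went from -0.58 to 0.52 without ssNM-R 6. The same pair of spleens had the highest summed levels of matrix genes (76058 and 72307, compared to 43890 to 57901 in the other 4), of inflammatory mediators (19801 and 15123, compared to 7387 to 9179) and of immediate early genes, which respond to stimuli within minutes (18643 and 21043, compared to 11312 to 14953). Both animals were 23 months old and both libraries were deep, with 18219644 and 18387599 reads, and the part of either in these levels was not tested. In ssNM-R 6, 87 genes were more than 1 log2 unit above the next highest spleen, compared to 3 to 22 genes in the other spleens.

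Red cell genes likewise varied among the animals of both cohorts. The summed level of the 9 genes of haem synthesis was 135807, 103000 and 92889 in ssNM-R 2, 3 and 6 and 100712, 121028 and 86121 in lsNM-R 1, 4 and 5, and the cell cycle genes followed a like order, from 57539 and 59752 in ssNM-R 2 and lsNM-R 4 down to 43485 in ssNM-R 6. The eosinophil granule gene Prg3 was at 662, 1603 and 82.8 in ssNM-R and at 1280, 1414 and 261 in lsNM-R. The mesothelial gene Msln, whose product covers the spleen capsule, was at 353, 808 and 1496 in ssNM-R and at 850, 723 and 485 in lsNM-R. Of 9 tested adipose tissue genes 6 had a positive log2 fold change (median 0.19). At an unadjusted p under 0.05, 2 (22.2%) were lower in lsNM-R, beside 2.46% of all genes. Of these, Lep was near the limit of detection in lsNM-R, at 2.5 to 9.9 normalized counts compared to 8.2 to 24.0 in ssNM-R, and Fabp4 was at 97.8 to 119 compared to 129 to 161.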
